A study of Mus musculus with 8 samples.

Results

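The genes described here code for the autophagy conjugation machinery, which comprises *Atg3*, *Atg4a*, *Atg4b*, *Atg4c*, *Atg4d*, *Atg5*, *Atg7*, *Atg10*, *Atg12* and *Atg16l1*. These 10 genes were chosen by name, from 22664 gene symbols on the array, and all 10 were measured. RNA came from gastrocnemius (GAS) muscle of male wild-type C57/Bl6j mice, 14 weeks of age per the labels, at 3 weeks after an adeno-associated virus (AAV) was injected into the muscle, and was hybridised to Clariom S Mouse microarrays. AAV sh-RNA MYTHO encoded a short hairpin RNA against the transcript of *Mytho*, and AAV sh-RNA scrmb encoded a scrambled hairpin and was given to the other leg of the same mice. Each group held 4 arrays, so every muscle had received virus and no uninjected muscle was compared. In both vectors, of an AAV serotype known to favor muscle cells, the hairpin was driven by a U6 promoter, which is not specific to muscle, and which cells were silenced was not measured here. The mice are called A to D here, from an animal number in the column names that occurs once in each group.

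Signals are on the log2 scale, where a difference of 1 is a 2-fold change, and fold changes are given as MYTHO minus scrmb. The silenced gene was listed as D230025D16Rik, and its log2 signal was 10.78 to 11.35 in the scrmb arrays and 8.08 to 8.80 in the MYTHO arrays. Its log2 fold change was -2.81 (limma adjusted p = 0.00044). Array medians lay between 6.39 and 6.47. The 7 skeletal muscle markers had array means of 19.41 to 19.56 in log2 signal, and *Acta1* and *Myh4* were saturated at 19.93 on all 8 arrays. Of these 7, 1 was higher in MYTHO muscle at an unadjusted p under 0.05, *Mb* (myoglobin) at a log2 fold change of 0.55 (limma adjusted p = 0.326). The samples were therefore muscle by their own markers. They were pieces of whole tissue, in which fewer cells of a type and less RNA per cell cannot be told apart.

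Autophagy encloses cytoplasm in a double membrane that grows with the help of a pair of ubiquitin-like conjugation reactions. ATG7, the activating enzyme shared by both, hands ATG12 to ATG10, which joins it to ATG5, and the ATG12-ATG5 conjugate assembles with ATG16L1 on the growing membrane. ATG7 also hands the ATG8 proteins (LC3 and GABARAP) to ATG3, which, together with the ATG12-ATG5-ATG16L1 complex, attaches them to the membrane lipid phosphatidylethanolamine. ATG4 proteases first trim newly made ATG8 proteins and later cut them off the membrane again. Loss of ATG5 or ATG7 in muscle fibers is known to block autophagosome formation and to lead to weak, wasting muscle.

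Promoter sequences from RefSeq (build GRCm38.p6) were matched for 8 of the 10 genes, in 10 windows, and the 250 bases before each annotated start were searched on both strands. No match was made for *Atg12* and *Atg16l1*. *Atg4a* and *Atg4c*, each with more than 1 annotated start, are shown because they had the lowest p of the 10 genes. The capitals mark the motif GGCGGG, bound by Sp1 factors and read as CCCGCC on the other strand, and the motif CCAAT, bound by NF-Y. The *Atg4a* window lies at chrX:140956657-140956906 on the plus strand and the *Atg4c* window at chr4:99193897-99194146 on the plus strand, each before an annotated start that lies inside the span of the gene.
Atg4a: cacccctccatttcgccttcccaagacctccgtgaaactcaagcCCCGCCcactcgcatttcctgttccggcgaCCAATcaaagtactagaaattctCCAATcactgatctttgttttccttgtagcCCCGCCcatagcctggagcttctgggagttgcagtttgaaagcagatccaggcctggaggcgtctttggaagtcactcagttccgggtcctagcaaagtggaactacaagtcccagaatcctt
Atg4c: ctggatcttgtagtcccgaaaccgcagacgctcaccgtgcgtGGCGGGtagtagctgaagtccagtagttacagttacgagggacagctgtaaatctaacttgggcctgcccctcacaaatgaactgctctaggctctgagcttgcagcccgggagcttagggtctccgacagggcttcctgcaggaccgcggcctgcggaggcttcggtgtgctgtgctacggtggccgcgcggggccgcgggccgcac

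The other *Atg4a* window, which ends at the start of the gene's span, held TATAAA, the letters of the TATA element, 151 bases before that start, which 12.4% of all windows hold, and the other *Atg4c* window, also inside the gene's span, held none of the motifs. The *Atg4a* stretch had a GC content of 52.4% and 9 CpG sites, and the *Atg4c* stretch 62.8% and 20 sites. GGCGGG occurred in 6 of the 10 windows and in 32.5% of all 32851 promoter windows, and CCAAT in 3 of the 10 and in 33.8% of all windows. The FoxO core GTAAACA was searched because *Mytho* is under FoxO control in the study, and none of the 10 windows held it, against 3.17% of all windows. The ATF4 response core TGATGCAA was in none either, against 0.791%. The E-box CACGTG is the core of the site that the lysosomal regulator TFEB binds. It was found in 3 of the 10 windows, for *Atg3*, *Atg5* and *Atg7*, and in 6.02% of all windows. These 3 stretches are shown with the E-box in capitals, at chr16:45158708-45158767, chr10:44268298-44268338 and chr6:114670937-114670996, all on the plus strand. The *Atg7* stretch also lies inside the span of its gene. *Atg3* holds the E-box at 2 positions.
Atg3: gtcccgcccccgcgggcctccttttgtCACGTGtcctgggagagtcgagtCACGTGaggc
Atg5: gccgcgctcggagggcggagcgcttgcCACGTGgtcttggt
Atg7: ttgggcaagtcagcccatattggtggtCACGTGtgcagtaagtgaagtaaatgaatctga

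The comparison of the groups asks whether silencing of *Mytho* changed the transcripts of the conjugation machinery. *Atg4a* was lower and *Atg4c* and *Atg12* were higher in MYTHO muscle, with no overlap between the groups, but none of the 10 genes passed after adjustment over all 22206 probe sets. The lowest limma adjusted p was 0.241, for *Atg4a*. At an unadjusted limma p under 0.05, 2 of the 10 genes were higher, against 4.81% of all probe sets, and 1 was lower, against 7.58%. With animal as a fixed block, which compares the legs of each mouse, 2 were higher, against 4.94%, and 1 was lower, against 7.66%. *Atg7* then took the place of *Atg12*. With animal as a random block, which uses 1 correlation between legs for all probe sets, *Atg12* had an unadjusted p under 0.05 and *Atg7* did not. The groups of arrays did not overlap for *Atg12*, *Atg4c* and *Atg4a*, against 2.59% of all probe sets in the higher and 3.87% in the lower direction. None of the 10 reached 2-fold with an unadjusted p under 0.05, which 1.51% of all probe sets did, and an adjusted p under 0.05 was reached by 0.027% of all probe sets. The 95% intervals of the 10 genes allowed at most a 2.06-fold higher or a 2.07-fold lower signal. Of the 10 log2 fold changes, 6 were above 0, and their median was 0.19, beside -0.005 over all probe sets. Without single arrays that median ran from 0.12 (without MYTHO B) to 0.28 (without MYTHO C).

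**Figure D1:**
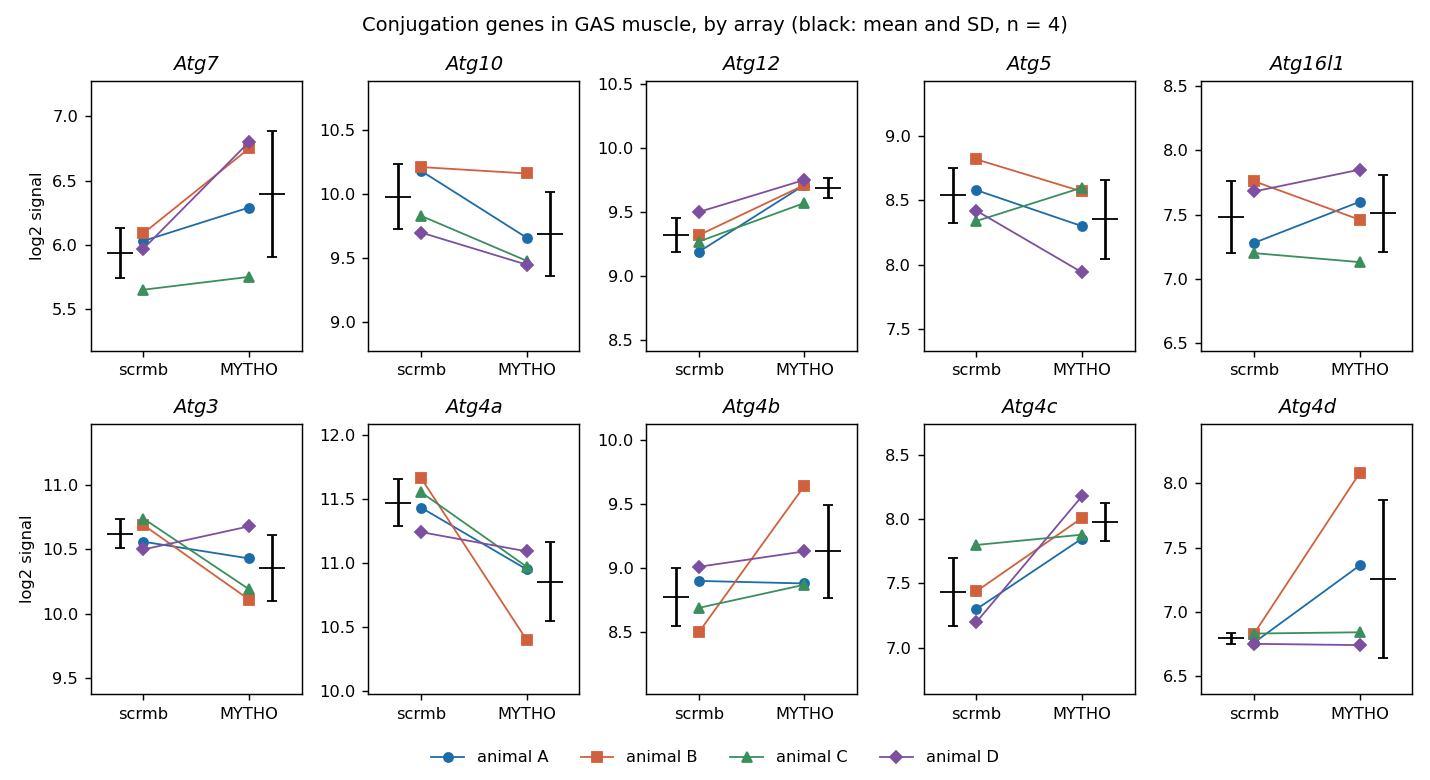
Log2 signal of the 10 conjugation genes in the scrmb and MYTHO arrays, with the 2 legs of each mouse joined by a line and the mean and SD of the 4 arrays in black; all panels span the same range of log2 signal. The groups are separate for Atg12, Atg4a and Atg4c, and the MYTHO array of animal B stands high for Atg4b and Atg4d and low for Atg4a.

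*Atg7* (chromosome 6, 114643127 to 114860604 in GRCm38.p6), the activating enzyme of both reactions, had log2 signals of 6.03, 6.09, 5.65 and 5.97 in scrmb muscle, in the order of animals A to D used throughout, and 6.29, 6.75, 5.75 and 6.80 in MYTHO muscle. The MYTHO leg was higher in 4 of 4 animals, but the MYTHO array of animal C lay among the scrmb arrays. Its log2 fold change was 0.46 (standard error, SE, 0.24, limma adjusted p = 0.470). The unadjusted limma p was 0.080, 0.0700 with animal as a random block, and 0.0451 as a fixed block, where the adjusted p was 0.383. Without single arrays it ran from 0.33 (without MYTHO D) to 0.68 (without MYTHO C, limma adjusted p = 0.308). These signals lie around the array medians, and the deposited table holds no detection call.

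*Atg10* (chromosome 13, 90935348 to 91224725), which carries ATG12 to ATG5, had log2 signals of 10.18, 10.21, 9.83 and 9.70 in scrmb and 9.66, 10.16, 9.48 and 9.45 in MYTHO muscle. All 4 animals had the lower signal in the MYTHO leg, and the MYTHO arrays of A, C and D lay below all scrmb arrays while that of B was among them. The log2 fold change was -0.29 (SE 0.21, limma adjusted p = 0.628). Without single arrays it ran from -0.45 (without MYTHO B, the only one with an unadjusted p under 0.05, limma adjusted p = 0.504) to -0.21 (without MYTHO D).

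*Atg12* (chromosome 18, 46732417 to 46741724), the ubiquitin-like protein of this arm, had log2 signals of 9.19, 9.32, 9.27 and 9.50 in scrmb and 9.71, 9.71, 9.57 and 9.75 in MYTHO muscle. Every MYTHO array was above every scrmb array, by a gap of 0.07 between the nearest. Scrmb muscle averaged 9.32 ± 0.13 and MYTHO muscle 9.68 ± 0.08 (SD, n = 4 each), and the differences within animals ran from 0.25 to 0.52. This was a log2 fold change of 0.36 (SE 0.16) or a 1.29-fold higher signal, with a limma adjusted p of 0.389. The unadjusted limma p was 0.0443, 0.0390 with animal as a random block, and 0.0682 as a fixed block. The call at an unadjusted p under 0.05 was also lost without scrmb A, B or C and without MYTHO A, B or D, where the log2 fold change was 0.32 to 0.37.

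*Atg5* and *Atg16l1* did not differ beyond the spread between arrays. *Atg5* (chromosome 10, 44268322 to 44364299), to which ATG12 is joined, had log2 signals of 8.58, 8.82, 8.34 and 8.42 in scrmb and 8.30, 8.57, 8.60 and 7.94 in MYTHO muscle. Its log2 fold change was -0.19 with a 95% interval from -0.63 to 0.25 (limma adjusted p = 0.763), and animal C had the higher signal in the MYTHO leg where the other animals had the lower. Without single arrays it ran from -0.27 (without MYTHO C) to -0.05 (without MYTHO D). *Atg16l1* (chromosome 1, 87756007 to 87792428), which places the conjugate on the membrane, had 7.28, 7.76, 7.20 and 7.68 in scrmb and 7.60, 7.46, 7.13 and 7.85 in MYTHO muscle. Its log2 fold change was 0.03 with an interval from -0.43 to 0.49 (limma adjusted p = 0.976), higher in 2 animals and lower in 2. Of the genes of the ATG12 arm, *Atg12* was therefore the only one with separated groups, by a gap of 0.07 and without passing after adjustment. The groups overlapped for *Atg7*, *Atg10*, *Atg5* and *Atg16l1*.

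*Atg3* (chromosome 16, 45158829 to 45188538), the enzyme that passes ATG8 proteins to lipid, had log2 signals of 10.56, 10.69, 10.74 and 10.50 in scrmb and 10.43, 10.11, 10.19 and 10.68 in MYTHO muscle. The MYTHO arrays of animals A, B and C were below all scrmb arrays, and that of animal D was among them. The log2 fold change was -0.27 (SE 0.18, limma adjusted p = 0.592). Without single arrays it ran from -0.38 (without MYTHO D, limma adjusted p = 0.461) to -0.19 (without MYTHO B). The mean log2 signal of 8 slow-fiber markers was 11.68 in MYTHO D and 14.43 to 14.88 in the other MYTHO arrays, and it was 13.70 in scrmb A and 11.61 to 11.94 in the other scrmb arrays, while the *Atg3* signal of scrmb A lay within the scrmb range. The part of fiber type in the *Atg3* signal was not tested.

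Of the 4 ATG4 protease genes, *Atg4a* had a log2 fold change below 0 and the others above 0. None passed after adjustment, and a difference among them was not tested. *Atg4a* (chromosome X, 140953845 to 141164194) had log2 signals of 11.43, 11.66, 11.55 and 11.24 in scrmb and 10.95, 10.40, 10.97 and 11.09 in MYTHO muscle, so all MYTHO arrays lay below all scrmb arrays, with a gap of 0.15. Scrmb muscle averaged 11.47 ± 0.18 and MYTHO muscle 10.85 ± 0.31 (SD, n = 4 each). MYTHO muscle thus held 65.2% of the scrmb signal, a log2 fold change of -0.62 (SE 0.20), with a limma adjusted p of 0.241. The unadjusted limma p was 0.0091, and 0.0202 with animal as a fixed block, where the adjusted p was 0.305. The signal was lower in 4 of 4 animals, with differences of -0.15 in animal D and -1.26 in animal B.

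A second probe set names *Atg4a* together with its pseudogene Atg4a-ps and cannot separate them. Its log2 signals were 10.16, 10.00, 10.07 and 9.93 in scrmb and 9.96, 9.70, 9.62 and 9.64 in MYTHO muscle. They were lower in 4 of 4 animals as well, but the groups overlapped and the log2 fold change was -0.31 (SE 0.17, limma adjusted p = 0.485). The mean of both probe sets gave -0.46. Whether the probe set that names *Atg4a* alone also takes up pseudogene transcripts was not tested.

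*Atg4c* (chromosome 4, 99189159 to 99297258) had log2 signals of 7.30, 7.44, 7.80 and 7.20 in scrmb and 7.85, 8.01, 7.88 and 8.18 in MYTHO muscle. All MYTHO arrays were above all scrmb arrays, by a gap of 0.05 to the scrmb array of animal C. Scrmb muscle averaged 7.43 ± 0.26 and MYTHO muscle 7.98 ± 0.15 (SD, n = 4 each), a 1.46-fold higher signal or a log2 fold change of 0.54 (SE 0.19), with a limma adjusted p of 0.267. The unadjusted limma p was 0.0130, and 0.0251 with animal as a fixed block, where the adjusted p was 0.325. The difference was positive in 4 of 4 animals and ran from 0.08 in animal C to 0.98 in animal D.

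*Atg4b* (chromosome 1, 93754905 to 93789606), known as the most active of the proteases on LC3, had log2 signals of 8.90, 8.50, 8.69 and 9.01 in scrmb and 8.88, 9.64, 8.87 and 9.13 in MYTHO muscle. *Atg4d* (chromosome 9, 21265205 to 21274837) had 6.76, 6.83, 6.83 and 6.75 in scrmb and 7.36, 8.08, 6.84 and 6.74 in MYTHO muscle. In both genes the MYTHO array of animal B was the highest of all 8. The log2 fold change of *Atg4b* was 0.36 (SE 0.22, limma adjusted p = 0.543) and 0.18 without that array (adjusted p = 0.810). For *Atg4d* it was 0.46 (SE 0.27, limma adjusted p = 0.516) and 0.19 without that array (adjusted p = 0.811). Without the MYTHO array of animal D it was 0.63, with an unadjusted p under 0.05 (limma adjusted p = 0.389). The *Atg4d* signals in scrmb muscle lie near the array medians of 6.39 to 6.47, and there is no detection call for them either.

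*Atg4a* and *Atg4c* thus differed in direction. Within an array, the log2 signal of the *Atg4a* probe set minus that of the *Atg4c* probe set was 4.13, 4.22, 3.75 and 4.04 in scrmb and 3.10, 2.39, 3.09 and 2.91 in MYTHO muscle. The gap was smaller in every MYTHO array, and averaged 4.04 ± 0.20 in scrmb and 2.87 ± 0.33 in MYTHO muscle (SD, n = 4 each). This pair was picked after its values were seen and its gap was not tested, and since probe sets differ in brightness, only the change of the gap can be read.

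**Figure D2:**
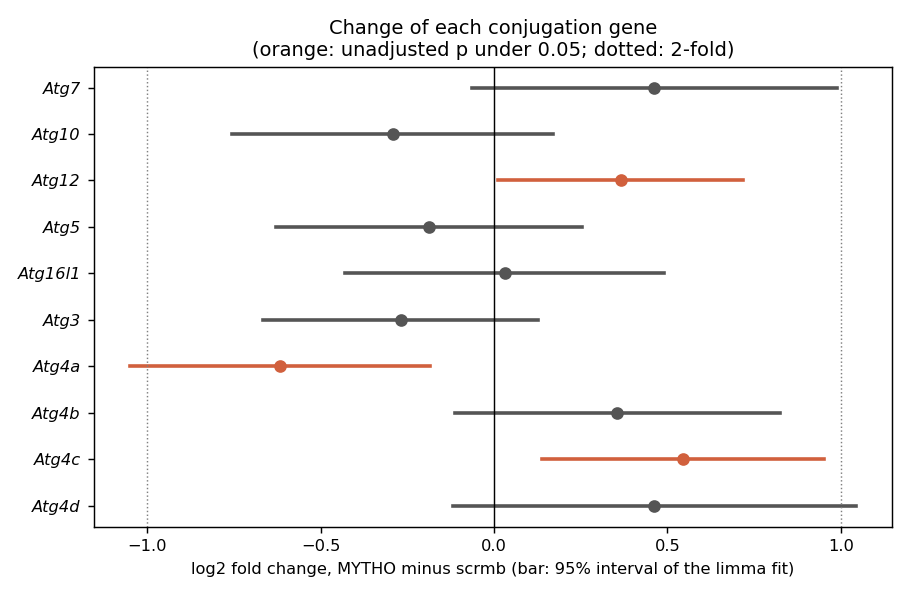
Log2 fold change (MYTHO minus scrmb) of each conjugation gene with the 95% interval of the limma fit; orange marks an unadjusted p under 0.05 and dotted lines mark a 2-fold change. Atg4a at -0.62, Atg4c at 0.54 and Atg12 at 0.36 have intervals that leave out 0.

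Seen by animal, the genes did not shift one way. In animals A and B, 5 of the 10 genes had the higher and 5 the lower signal in the MYTHO leg, and in animals C and D 6 had the higher and 4 the lower. The median difference over the 10 genes was 0.12, 0.17, 0.045 and 0.145 in animals A to D, beside -0.01, 0.01, -0.03 and -0.01 over all probe sets. *Atg7*, *Atg12* and *Atg4c* had the higher and *Atg4a* and *Atg10* the lower signal in the MYTHO leg of all 4 animals, while the other 5 genes were mixed. The share of all probe sets that go one way in all 4 animals was not counted, so this is a description only. The widest differences, 1.25 for *Atg4d*, 1.14 for *Atg4b* and -1.26 for *Atg4a*, all came from animal B.

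**Figure D3:**
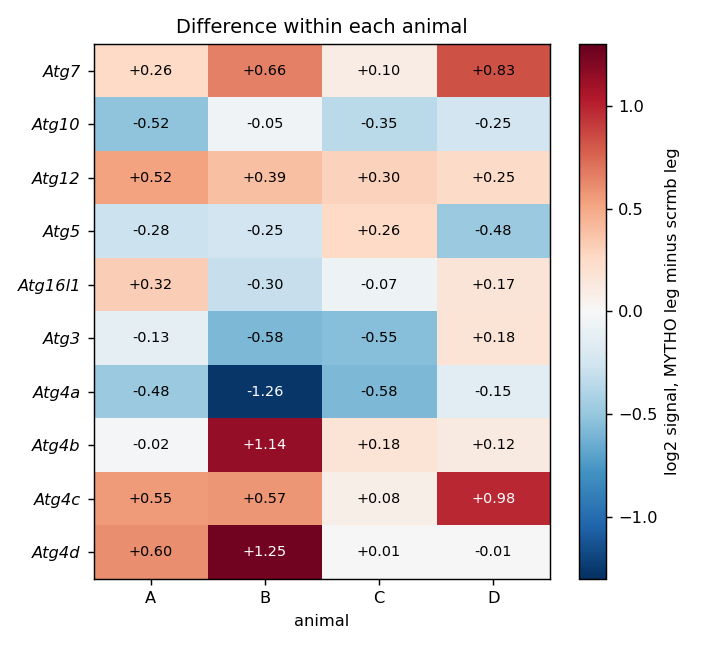
Difference in log2 signal between the MYTHO leg and the scrmb leg of each animal for the 10 conjugation genes; red is higher and blue lower in the MYTHO leg. Atg7, Atg12 and Atg4c are higher and Atg4a and Atg10 lower in all 4 animals, and animal B holds the widest differences. The share of all probe sets that go one way in all 4 animals was not counted.

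The same fit was read for other genes of the pathway. Of 9 genes of the initiation step, none had an unadjusted p under 0.05, and their median log2 fold change was 0.13. The lowest p among them belonged to *Atg2b* at -0.36 and *Atg2a* at 0.50 (limma adjusted p = 0.474 and 0.506), which code for the lipid transfer proteins of the growing membrane. Of 10 genes of the nucleation step, which marks the membrane with a phosphoinositide, 2 were higher at an unadjusted p under 0.05 and none lower. These were *Becn1*, a subunit of the lipid kinase complex, with a log2 fold change of 0.47 and *Wipi1*, a reader of its product, with 0.47 (limma adjusted p = 0.354 and 0.388). The median of the 10 was -0.02.

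Among the 5 ATG8 genes, whose proteins are the substrates of ATG7, ATG3 and ATG4, 1 was higher at an unadjusted p under 0.05. This was *Map1lc3a*, coding for an LC3 protein, with log2 signals of 10.42, 10.16, 9.74 and 11.17 in scrmb and 11.36, 12.10, 11.18 and 11.40 in MYTHO muscle. The groups were separated by 0.01 between the scrmb array of animal D and the MYTHO array of animal C. This was a log2 fold change of 1.14 (SE 0.30, limma adjusted p = 0.164). *Gabarapl1* was next in p with 0.32 (limma adjusted p = 0.610). The other partners of the machinery, *Tecpr1*, which can replace ATG16L1 on lysosomes, and *Atg16l2*, a relative of ATG16L1, had log2 fold changes of 0.23 and 0.09 (limma adjusted p = 0.708 and 0.894).

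Enzymes and modifiers of other ubiquitin-like systems (UFM1, NEDD8, SUMO, URM1, ISG15 and ubiquitin activation) served as a reference list. Of these 30 genes, none was higher and 2 were lower at an unadjusted p under 0.05, with a median log2 fold change of 0.001. The 2 genes were *Senp6*, a SUMO protease, at -0.42 and *Ufm1*, the modifier of the UFM1 system, at -0.38 (limma adjusted p = 0.394 and 0.397). With animal as a block none of the 30 passed. The reference list ran from -0.42 to 0.39 and the conjugation genes from -0.62 to 0.54, and the difference in width was not tested.

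**Figure D4:**
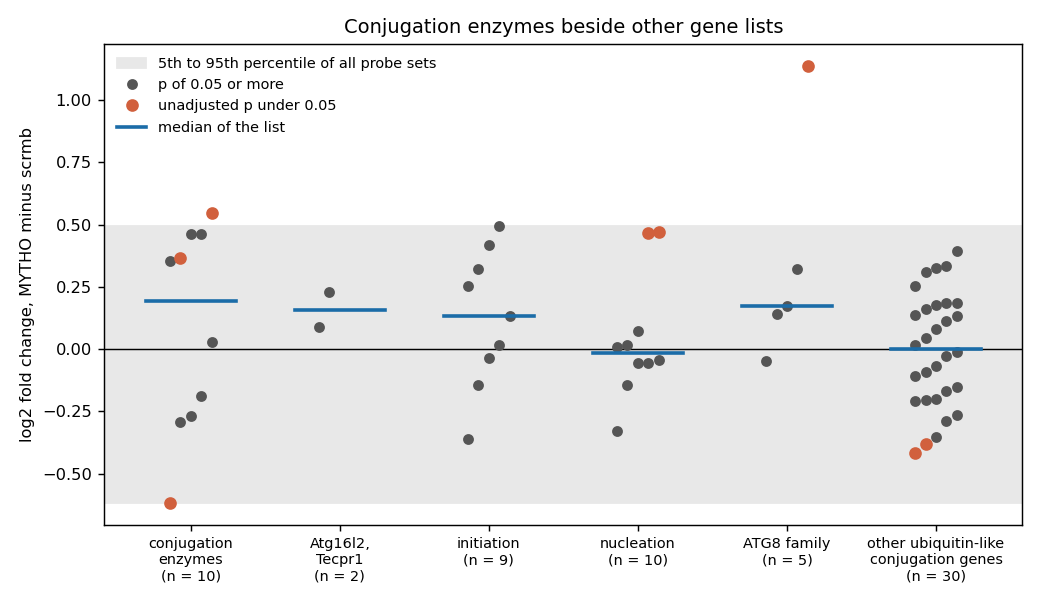
Log2 fold change (MYTHO minus scrmb) of each gene in the conjugation machinery and in the other lists, with the median of each list in blue, genes with an unadjusted p under 0.05 in orange and the central 90% of all probe sets in grey. Map1lc3a at 1.14 lies above all other genes shown, and the conjugation genes run from -0.62 to 0.54.

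By the likeness of its profile, *Atg4a*, the conjugation gene with the lowest p, came closest to *Ogn*, *Rab7*, *Smpdl3a*, *Taar4* and *Aplf* among 21058 genes. Pearson r over the 8 arrays was 0.977, 0.971, 0.970, 0.963 and 0.962. The arrays share 4 animals and 79 genes had an r over 0.9, so these are the top of a long list.

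Markers of other cells were read beside these values. Of 8 slow-fiber markers, 7 were higher in MYTHO muscle at an unadjusted p under 0.05, against 4.81% of all probe sets. The log2 fold changes of the 8 ran from 1.28 to 2.44, but the lowest limma adjusted p was 0.280, so none passed. With animal as a fixed block, 8 were higher at an unadjusted p under 0.05, against 4.94%. Array means of their log2 signals overlapped, at 11.61 to 13.70 in scrmb and 11.68 to 14.88 in MYTHO muscle. Of 5 endothelial markers, 2 were higher, *Pecam1* at 0.45 and *Tek* at 0.86 (limma adjusted p = 0.366 and 0.213), and array means were 10.17 to 10.75 in scrmb and 10.89 to 11.08 in MYTHO muscle, without overlap. Of 5 satellite cell markers, 2 were higher, *Cdh15* at 0.51 and *Myog* at 0.65 (limma adjusted p = 0.347 and 0.307), and array means were 5.10 to 5.68 and 5.34 to 5.94. Of 5 fibroblast markers, 1 was lower, *Dcn* at -0.59 (limma adjusted p = 0.236), while the others did not pass and went both ways, with *Col3a1* at 0.42, *Lum* at 0.26, *Pdgfra* at -0.22 and *Col1a1* at -0.30. Array means were 10.78 to 10.96 and 10.54 to 11.18. The markers named here were picked after their values were seen. The part of these cells in the *Atg12*, *Atg4c* and *Atg4a* signals was not tested.

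No macrophage, T cell (4 of 5 markers measured), adipocyte, Schwann cell or blood marker had an unadjusted p under 0.05. Macrophage means were 7.11 to 7.46 in scrmb and 7.15 to 7.48 in MYTHO muscle, and T cell means 6.04 to 6.43 and 5.86 to 6.26. Adipocyte means ran from 5.44 to 8.76 and from 5.77 to 10.26, Schwann cell means from 7.32 to 9.45 and from 7.46 to 8.09, and blood means from 10.22 to 11.74 and from 10.97 to 12.52.

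**Figure D5:**
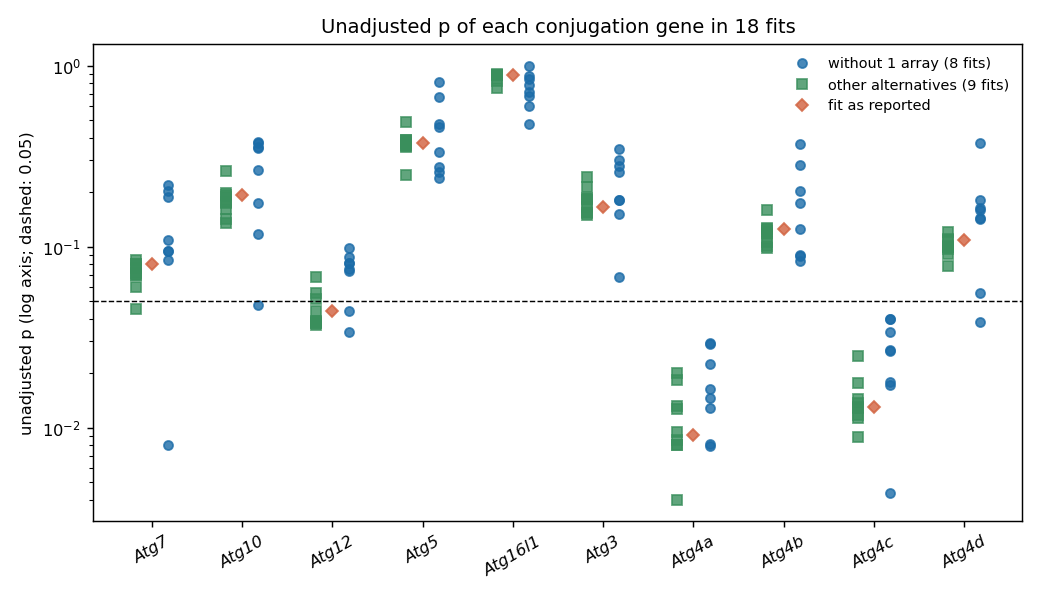
Unadjusted limma p of each conjugation gene in 18 fits on a log axis: the fit as reported, 8 fits without 1 array and 9 other alternatives, with 0.05 dashed. Atg4a and Atg4c lie below 0.05 in all fits, and Atg12 lies on both sides of it.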

How the data were processed

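GAS muscle RNA of 8 samples was hybridised to Clariom S Mouse arrays. The authors deposited log2 signals per probe set from the Transcriptome Analysis Console version 4.0.1, made by SST-RMA with annotation release 36 on mm10 and rounded to 2 decimals. Quantile normalization within SST-RMA removes a shift shared by all genes, and saturation at 19.93 hides changes of the brightest ones. The authors' group means, fold changes and p-values are also in the table and were not used. Where several probe sets name a gene, the one with the highest mean over all arrays was kept, which touched *Atg4a* among the 10 genes.

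Groups were compared on all 22206 probe sets with limma version 3.58.1 (lmFit, eBayes, two-sided) in R version 4.3.3, without a block, since the study's account of the array test names no pairing term, and adjusted by Benjamini-Hochberg over all probe sets. The code was tested on simulated data. Same-numbered arrays came from the 2 legs of one mouse, so fits with animal as a fixed block and as a random block were run as well. Deviations from the group means correlated between the legs of an animal with r from -0.00145 to 0.135 across probe sets. Which labelled replicate a column holds is not given, so animals were taken from the column names.

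The genes, lists and tests were chosen with earlier results of these data known. The genes named outside the 10 are D230025D16Rik and, per pathway list, those with an unadjusted p under 0.05, or the 2 with the lowest p where fewer than 2 passed, and the 5 profiles closest to the conjugation gene of lowest p. Marker lists are given by counts and ranges, and single markers and *Nedd8*, *Senp2* and *Uba7* were named after their values were seen. Motifs were chosen by name. The number of arrays limits the precision of every value. Alternatives were blocks, quantile normalization, median centring, the upper 75% of probe sets by signal, trend and robust eBayes, array weights, no saturated probe sets, the mean of a gene's probe sets, other thresholds and leaving out each array.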

Additional observations from a re-analysis of the deposited data

Results flagged for a closer look

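In 22 groups of 4 arrays (the 10 conjugation genes and the silenced gene in each group), 1 array lay apart from the other 3 by more than Dixon's 95% critical value, where chance gives about 1 in 20. In MYTHO muscle, D230025D16Rik had a log2 signal of 8.80 in animal C against 8.08 to 8.20 in the others, a gap of 0.833 of the range. None of the 10 conjugation genes had such an array.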

How the results depend on the processing

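The log2 fold change of D230025D16Rik kept its sign and its call in all 17 alternative fits. *Atg4a* and *Atg4c* had an unadjusted p under 0.05 in all 17, with log2 fold changes from -0.70 to -0.46 and from 0.47 to 0.67, and *Atg12* in 8 of 17, with 0.32 to 0.43. The limma adjusted p ran from 0.141 to 0.458, from 0.222 to 0.449 and from 0.301 to 0.585, so no alternative called them, and the count after adjustment was 0 throughout, also at an adjusted p under 0.1. The 2 higher conjugation genes became 1 with trend and robust eBayes and without saturated probe sets, and 1 to 3 without single arrays (1 without scrmb A, B or C or MYTHO A or B). The lower gene, 1 in number, became 2 without MYTHO B, by *Atg10*. With the fixed block by animal the counts stayed at 2 and 1, with *Atg7* in place of *Atg12*. With the random block they stayed at 2 and 1 without that exchange. A fold minimum of 1.5 counted 1 gene in place of 0. Groups without overlap numbered 1 higher gene after quantile normalization, 2 to 3 without single arrays (3 without MYTHO C or MYTHO D), and 1 to 2 lower genes without single arrays (2 without MYTHO B or MYTHO D). Among the 56 other listed genes, the higher count of 3 ran from 1 to 5 without single arrays (1 without scrmb C, MYTHO A or MYTHO D, 5 without scrmb D). The lower count of 2 was 0 with the fixed block by animal, median centring and no saturated probe sets. It stayed at 2 with the random block, and was 1 with array weights and 0 to 1 without single arrays. *Atg16l1* changed sign without scrmb A, scrmb C or MYTHO D, with values from -0.083 to 0.157 and no call. Of 170 log2 fold changes of the 10 genes, these 3 changed sign, that of *Atg16l1* without MYTHO A was 0 within rounding error, and none reached an adjusted p under 0.05. At an unadjusted p under 0.05, *Atg7* was called in 2 of 17 fits and *Atg4d* and *Atg10* in 1 each. The cause of these shifts was not tested.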

Other observations

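Of the 30 genes of other ubiquitin-like systems, 4 had groups without overlap, 3 higher and 1 lower, beside 2.59% and 3.87% of all probe sets. *Nedd8* at a log2 fold change of 0.33, *Senp2* at 0.33 and *Uba7* at 0.31 were higher, and *Ufm1* at -0.38 was lower in MYTHO muscle. The limma adjusted p was 0.435, 0.479, 0.566 and 0.397, so none passed, and the 3 higher genes were named after their values were seen.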
